A study of Mus musculus with 18 samples.

Results

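The miR-30 family was followed here through 10 mature miRNAs, 5 from the 5p arm (mmu-miR-30a-5p, mmu-miR-30b-5p, mmu-miR-30c-5p, mmu-miR-30d-5p and mmu-miR-30e-5p) and 5 from the 3p arm (mmu-miR-30a-3p, mmu-miR-30d-3p, mmu-miR-30e-3p, mmu-miR-30c-1-3p and mmu-miR-30c-2-3p), out of 1907 mature miRNAs in the count table. They were taken by name, without the prefix mmu- (mouse) from here on, and the family was chosen by the reads of its near-identical 5p members, which differed strongly after immunoprecipitation (IP). For that reason the IP to input values of the members are given as a description without a test. The libraries were small RNA-seq libraries of NIH/3T3, a mouse embryonic fibroblast line, made before (input) and after IP with an antibody against pseudouridine (Ψ), the isomer of uridine. Cells were labelled Pus1 WT (here WT) or carried a knockdown of Pus1 for 3 days (KD3) or 6 days (KD6). Pus1 is an enzyme that converts uridine to Ψ in tRNA and other RNAs. The 6 groups were WT input, WT IP, KD3 input, KD3 IP, KD6 input and KD6 IP. Each group held 3 replicates, A, B and C, and all 18 libraries came from the same cell line. The labels do not say whether replicates were separate cultures, so the spread between them may be technical, and the sources used here do not say what the WT cells received in place of the knockdown.

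A microRNA is cut from a hairpin whose 5′ and 3′ strands are the 5p and 3p arms, and usually only 1 of the arms is kept in an Argonaute protein while the other is degraded. Bases 2 to 8 of the mature strand, the seed, carry most of the pairing to target mRNAs, so miRNAs with the same seed are grouped as a family. The miR-30 5p strands are abundant in many differentiated tissues and mesenchymal cells, where they are known for repressing connective tissue growth factor and regulators of epithelial to mesenchymal transition and for promoting adipocyte differentiation. The 3p strands have other seeds and hence other predicted targets.

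Of the 10 members, all but miR-30b-5p, miR-30d-5p and miR-30d-3p were matched to 7 RefSeq mature sequences (GRCm38.p6). They are shown because the levels of near-identical strands and of both arms are compared below, and are written 5′ to 3′ with the seed in capitals.
miR-30a-5p: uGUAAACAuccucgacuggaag
miR-30e-5p: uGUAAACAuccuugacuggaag
miR-30c-5p: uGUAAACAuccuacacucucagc
miR-30a-3p: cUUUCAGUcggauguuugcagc
miR-30e-3p: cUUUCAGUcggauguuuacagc
miR-30c-1-3p: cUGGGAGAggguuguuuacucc
miR-30c-2-3p: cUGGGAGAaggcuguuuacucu

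The sequences fell into 3 seed groups. The seed GUAAACA of the 5p members shown was carried by 4 of the 1679 mature miRNAs in the RefSeq table (0.238%), the 3 shown and miR-384-5p. That table held no entry for miR-30b-5p or miR-30d-5p, so neither could be counted. The seed UUUCAGU of miR-30a-3p and miR-30e-3p was found in those 2 alone, and UGGGAGA of both miR-30c 3p strands in 3. With positions counted from 1 at the 5′ end, miR-30a-5p and miR-30e-5p differed by C13U alone, and miR-30a-3p and miR-30e-3p by G18A alone. Between miR-30c-1-3p and miR-30c-2-3p the changes were G9A, U12C and C22U. miR-30c-5p differed from miR-30a-5p at 5 of the 22 positions compared, none of them within the first 8. Uridines numbered 5 in miR-30a-5p and 6 in miR-30c-5p and miR-30e-5p, with U as the first base in all 3, against 7 or 8 in the 4 3p strands, all of which started with C.

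The hairpins lie in 3 pairs in the mouse genome (GENCODE annotation of GRCm38). Mir30a (chr1:23272269-23272339, plus strand) overlaps no other annotated gene, and Mir30c-2 (chr1:23291701-23291784, plus strand) lies 19361 bp from it in an exon of the lincRNA Gm27028. Mir30c-1 (chr4:120769534-120769622, minus strand) and Mir30e (chr4:120772606-120772697, minus strand) lie 2983 bp apart within introns of Nfyc, which encodes a subunit of the NF-Y transcription factor. Mir30b (chr15:68337415-68337510, minus strand) and Mir30d (chr15:68341208-68341289, minus strand) lie 3697 bp apart, the latter in an exon of the lincRNA Gm20732. miR-30c-5p is made from both Mir30c loci, and its 2 rows, which differed by at most 3 reads in any library, were summed. Reads of members that differ by 1 base can be exchanged by sequencing errors or by division among loci. The levels of miR-30a against miR-30e are uncertain to that extent. Whether this also holds for miR-30a-5p against miR-30d-5p was not tested, as the miR-30d-5p sequence was not matched. In IPs, 45261 to 133184 reads of miR-30d-5p stood beside 903 to 2865 of miR-30a-5p.

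Libraries held between 3989031 and 15099781 mapped reads, except replicate A of the KD6 input with 241109. In that library miR-30d-3p rested on 0.5 estimated reads, miR-30c-1-3p on 3 and miR-30b-5p on 10, so results on the KD6 input are also given without it. Reads outside the miRNA rows made up 5.47 to 9.96% of the mapped reads in inputs and 14.8 to 38.2% in IPs, with 14.8 to 18.6% in the WT IPs and 23.2% or more in the knockdown IPs. Of the fibroblast-type miRNAs, all 5 were present in every input (miR-143-3p made up a median of 80767 reads in each 1000000 miRNA reads), whereas miR-142a-3p of blood and miR-141-3p of epithelia had no read, and of the other 7 markers miR-9-5p, usually called neural, was present at 3286 on this scale, miR-122-5p of liver at 30.8 and the rest at medians of at most 0.72. Levels are given below as CPM, counts for each 1000000 miRNA reads after median-ratio scaling between libraries. The scaling makes IP and input comparable only relative to the other miRNAs, and in a bulk pool fewer cells with a miRNA and less of it per cell cannot be told apart.

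In the input, miR-30a-5p and miR-30d-5p were the main members of the family. miR-30a-5p was at 11329, 9867 and 10031 CPM in WT replicates A, B and C, and miR-30d-5p at 9516, 8722 and 8357. miR-30e-5p averaged 1507 ± 111 CPM (SD, n = 3) and miR-30c-5p 1262 ± 92.3. miR-30b-5p, the partner of miR-30d at its locus, was far lower at 105 ± 2.21. Of the 3p strands, miR-30a-3p was at 332 ± 25.4 CPM, miR-30c-2-3p at 189 ± 2.94 and miR-30e-3p at 175 ± 15.4, with overlapping ranges for the latter 2, and miR-30c-1-3p (12.2 ± 2.06) and miR-30d-3p (12.1 ± 2.36) were the lowest and also overlapped. The order of the first 5 members was the same in the KD3 input. In the KD6 input miR-30a-5p still averaged highest. Its range overlapped that of miR-30d-5p, and the range of miR-30c-5p that of miR-30e-5p, only through replicate A, the shallow library. In replicates B and C miR-30a-5p was at 10453 and 10029 CPM against 8788 and 7342 for miR-30d-5p, and miR-30c-5p at 2102 and 2106 against 1400 and 1501 for miR-30e-5p.

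After Ψ-IP, miR-30d-5p alone made up nearly all of the family. miR-30d-5p was at 23433, 24678 and 20163 CPM in the WT IP, against a highest WT input value of 9516, and the groups did not overlap. miR-30a-5p was at 430, 439 and 434 CPM in the WT IP, below every input library by a wide margin. miR-30e-5p was at 45.2, 41.6 and 36.0 CPM in the WT IP, against 1399 or more in the WT inputs. miR-30b-5p, at 4.69, 9.88 and 4.84 CPM, and miR-30c-5p, at 506, 595 and 429 CPM, were also below all WT inputs. In the WT IP miR-30d-5p thus stood apart from the second member, miR-30c-5p, while miR-30c-5p, miR-30a-3p, miR-30a-5p and miR-30c-2-3p, with means between 371 and 510 CPM, overlapped each with the next.

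**Figure D1:**
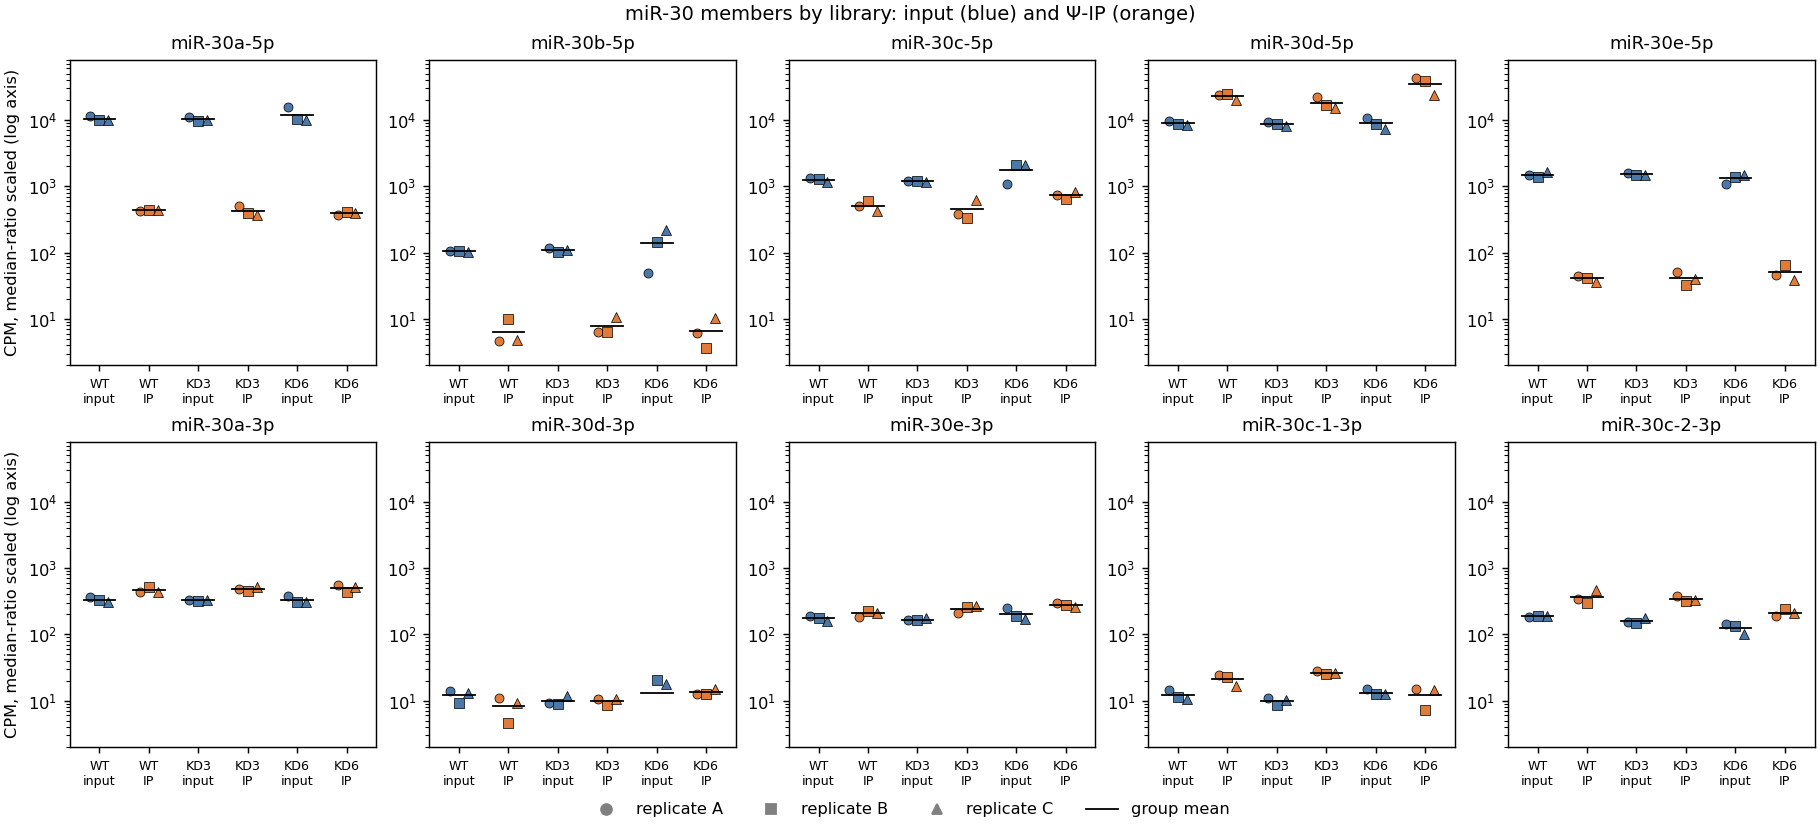
Level of each of the 10 miR-30 members in every library, in CPM on a log axis, with inputs in blue, Ψ-IPs in orange, marker shapes for replicates and a line for the mean of 3 libraries. The IP points of miR-30a-5p, miR-30b-5p, miR-30c-5p and miR-30e-5p lie below their inputs and those of miR-30d-5p above, while most 3p members stay close to the input; miR-30d-3p in replicate A of the KD6 input is at 0 and is not drawn.

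The same order of 5p members was seen in both knockdown conditions. miR-30d-5p was at 22033, 17046 and 15177 CPM in the KD3 IP and at 42773, 38426 and 23824 in the KD6 IP, all above its 9 input values (7342 to 10718). Its higher CPM in the KD6 IP than in the WT IP depends on the scaling. The median-ratio factors, by which CPM is divided, were 0.61, 0.71 and 0.85 in the KD6 IPs and 1.08, 1.03 and 0.99 in the WT IPs. Before this scaling the 10 members together took 2.62% of miRNA reads in the KD6 IP and 2.56% in the WT IP. miR-30a-5p ranged from 365 to 506 CPM over the 9 IP libraries, against 9504 to 15531 over the 9 inputs. miR-30e-5p ranged from 33.1 to 66.3 CPM in IPs, against 1091 to 1622 in inputs. miR-30b-5p ranged from 3.66 to 10.8 CPM in IPs, on 8 to 68 reads, against 49.4 to 218 in inputs. miR-30c-5p was the least reduced, at 334 to 822 CPM against 1076 to 2106. For each of these members the 9 IP libraries and the 9 input libraries formed ranges that did not meet.

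Fitted over all libraries, the log2 ratio of IP to input of miR-30d-5p was 1.36 ± 0.20 (SE) for WT cells, 1.06 ± 0.20 after 3 days of knockdown and 1.97 ± 0.21 after 6 days. The other 5p members follow in the same order of conditions. miR-30c-5p had −1.31 ± 0.24, −1.40 ± 0.24 and −1.27 ± 0.24. miR-30b-5p had −4.01 ± 0.39, −3.75 ± 0.39 and −4.38 ± 0.41. miR-30a-5p had −4.58 ± 0.20, −4.60 ± 0.20 and −4.93 ± 0.20, which is 24.0-fold lower in the WT IP. miR-30e-5p had −5.20 ± 0.24, −5.18 ± 0.24 and −4.74 ± 0.24, or 36.9-fold lower in the WT IP. The gap between miR-30d-5p and miR-30a-5p was 5.94 on the log2 scale for WT, 5.65 for KD3 and 6.90 for KD6, and over the other scalings tried the KD6 gap lay between 6.83 and 6.93. When the shallow input library was left out, the KD6 log2 ratios were 1.66 ± 0.21 for miR-30d-5p, −1.97 ± 0.21 for miR-30c-5p, −5.11 ± 0.35 for miR-30b-5p, −5.16 ± 0.16 for miR-30a-5p and −5.31 ± 0.23 for miR-30e-5p, and the median over all 596 miRNAs tested in that fit was −0.34.

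Of the 5 5p members, 4 were lower and 1 higher in the IP without overlap in each condition. Over all 550 miRNAs tested, WT had 40.4% lower and 35.6% higher in this way, KD3 had 40% lower and 35.5% higher, and KD6 had 25.5% lower and 33.8% higher. All 10 members passed the abundance filter. The median log2 ratio of the 5p members was −4.01, −3.75 and −4.38 for WT, KD3 and KD6, against −0.04, −0.03 and −0.00 over all 550 miRNAs. Because the members were chosen for these ratios, nothing is read from the counts. Among other families taken for scale, the let-7 5p strands (9 miRNAs) spanned 0.59 to 2.73 in WT with all 9 above 0, the miR-29 strands (3) −2.35 to −1.70, and the strands with the miR-17 seed (6) −4.20 to 1.05. The span of the miR-30 5p members in WT, 6.56 on the log2 scale, was wider than that of let-7 (2.14), miR-29 (0.65) and the miR-17 seed (5.26), while in KD6 the miR-17 seed spanned 7.75 and miR-30 6.90.

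**Figure D2:**
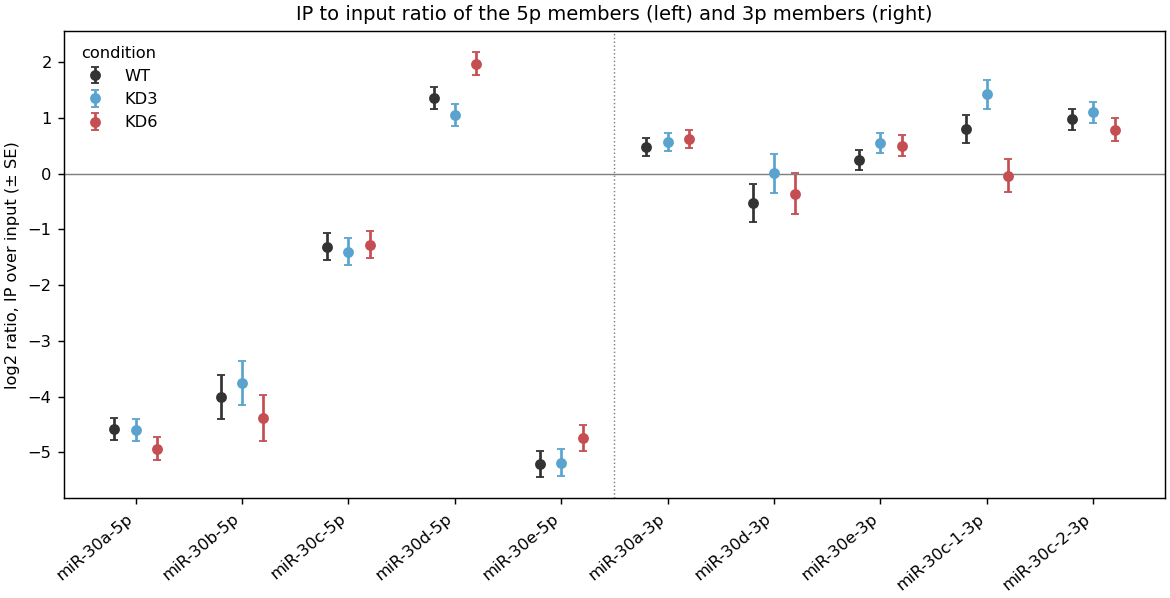
Log2 ratio of IP over input (fitted value ± SE, 3 libraries on each side) for each member in WT, KD3 and KD6, with the 5p members on the left and the 3p members on the right. The 5p members run from −5.20 to 1.97, whereas the 3p members lie between −0.53 and 1.42.

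The 10 members together took 2.61 ± 0.10% of all miRNA reads in the WT input and 2.56 ± 0.31% in the WT IP (SD, n = 3). The KD3 input had 2.38 ± 0.06% and the KD3 IP 1.89 ± 0.23%, and the KD6 input had 2.92 ± 0.25% and the KD6 IP 2.62 ± 0.35%. Ranges of input and IP overlapped in WT and KD6 and were separate in KD3, where the IP was lower. The overlap in KD6 rested on the shallow replicate A of the input, at 2.64%. Input replicates B and C, at 2.98 and 3.13%, were above all KD6 IPs (2.22 to 2.90%). After scaling between libraries, the summed 5p members were at 22148 ± 1415 CPM in the WT input and 23750.2 ± 2419 in the WT IP, and at 21781 ± 1418 and 19007 ± 3534 at day 3, with overlapping ranges both times. At day 6 they were at 24184 ± 3803 CPM in the input and 36194 ± 9859 in the IP, and the ranges (21197 to 28465 and 25095 to 43938) overlapped through replicate A of the input and C of the IP. The higher mean in the KD6 IP depends on the scaling, as the unscaled share of the 10 members averaged lower in that IP than in its input. Within the 5p reads, miR-30a-5p made up 47.0 ± 0.78% in the WT input and 1.84 ± 0.19% in the WT IP. miR-30d-5p made up 40.03 ± 0.74% in the WT input and 95.8 ± 0.13% in the WT IP. The miR-30d-5p share was 39.96 ± 1.26% in the KD3 input and 95.0 ± 1.30% in its IP, and 36.9 ± 1.99% and 96.5 ± 1.34% in KD6. miR-30e-5p went from 6.82 ± 0.70% to 0.17 ± 0.01% in WT, and miR-30c-5p from 5.70 ± 0.34% to 2.14 ± 0.15%. These shares rest on reads of 1 library at a time and so do not depend on the scaling between libraries, and the depth behind them was 2171 to 133184 reads of miR-30d-5p per library.

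**Figure D3:**
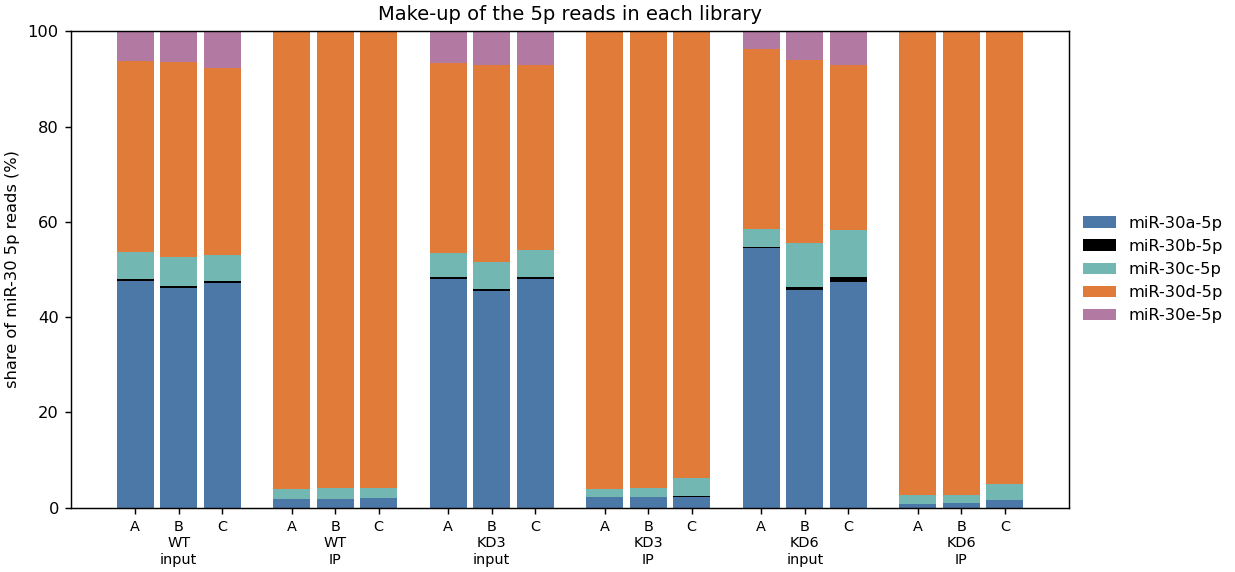
Share of each 5p member (% of the 5p reads of the family) in each of the 18 libraries, as stacked bars by group and replicate. Every input bar is divided mainly between miR-30a-5p and miR-30d-5p, and in every IP bar miR-30d-5p takes at least 93.5%.

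Within a library, miR-30d-5p had 0.69 to 0.91 reads for each read of miR-30a-5p over the 9 inputs. It had 46.5 to 56.2 in the WT IP, 40.8 to 43.5 in the KD3 IP and 59.5 to 117 in the KD6 IP. The IP ranges of the 3 conditions did not overlap. How many bases separate miR-30d-5p from miR-30a-5p was not compared, as the miR-30d-5p sequence was not matched. miR-30a-5p and miR-30e-5p, which differ by C13U, stayed closer in proportion. There were 6.19 to 7.55 reads of miR-30a-5p for each read of miR-30e-5p in the WT input and 9.51 to 12.0 in the WT IP. In KD6 this ratio was 6.68 to 14.2 in the input, the 14.2 coming from replicate A, and 6.23 to 10.5 in the IP.

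The 3p members behaved unlike their 5p partners. miR-30a-3p was at 361, 324 and 312 CPM in the WT input and at 439, 514 and 439 in the WT IP. Its log2 IP to input ratios for WT, KD3 and KD6 were 0.48 ± 0.16, 0.57 ± 0.16 and 0.62 ± 0.16, with IP above input in each condition. miR-30e-3p, which differs by G18A, had 0.24 ± 0.18, 0.55 ± 0.18 and 0.50 ± 0.18, and its WT groups overlapped. miR-30c-2-3p was at 186, 189 and 192 CPM in the WT input and at 346, 300 and 468 in the WT IP, and had log2 ratios of 0.98 ± 0.19, 1.10 ± 0.19 and 0.79 ± 0.20. The directions of miR-30a-3p, miR-30e-3p and miR-30c-2-3p depended on the scaling in KD6, and those of miR-30a-3p and miR-30e-3p also in KD3: with the total of mapped reads as the library size, the log2 ratios in KD6 were −0.45, −0.57 and −0.28, and in KD3 −0.02 and −0.04 for the first 2. The WT value of miR-30e-3p turned to −0.09 on that scale too. The median over all miRNAs on that scale was −1.16 in KD6, −0.61 in KD3 and −0.38 in WT. In KD6, miR-30a-3p, miR-30e-3p and miR-30c-2-3p stood 0.71, 0.59 and 0.88 above that median. With the shallow input library left out, the KD6 log2 ratios were 0.24 ± 0.16 for miR-30a-3p, 0.18 ± 0.19 for miR-30e-3p and 0.40 ± 0.21 for miR-30c-2-3p. The median over all miRNAs was −0.34 in that fit. Above that median they stood by 0.59, 0.52 and 0.75, against 0.63, 0.51 and 0.80 with all libraries kept.

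miR-30c-1-3p was at 14.4, 11.6 and 10.4 CPM in the WT input and at 24.2, 23.1 and 16.5 in the WT IP. It was at 28.0, 25.6 and 25.9 CPM in the KD3 IP, the highest of the IP groups and above all 3 KD3 inputs (8.64 to 10.9). In KD6 the IP libraries, at 15.0, 7.31 and 14.3 CPM, overlapped the inputs at 14.8, 12.5 and 12.5. The log2 IP to input ratio went from 0.80 ± 0.25 for WT to 1.42 ± 0.26 at day 3 and −0.03 ± 0.29 at day 6, or −0.48 ± 0.29 with the shallow input library left out. The day 6 value ran from −1.21 (total mapped reads) to 0.47 (upper-quartile factors), where the medians over all miRNAs were −1.16 and 0.50. miR-30d-3p, the partner strand of miR-30d-5p, did not share its enrichment: its log2 ratios were −0.53 ± 0.34, 0.01 ± 0.35 and −0.36 ± 0.36, with overlapping input and IP libraries in each condition, on 22.8 to 81 reads in IPs. Leaving out the shallow KD6 input library gave a KD6 value of −0.96 ± 0.31, with the median over all miRNAs at −0.34 in that fit. The KD3 value of miR-30d-3p ran from −0.58 (total mapped reads) to 0.47 (upper-quartile factors). Of the 5 3p members, WT had 3 higher without overlap and 2 overlapping, KD3 had 4 and 1, and KD6 had 3 and 2, against 35.6%, 35.5% and 33.8% higher without overlap over all 550 miRNAs. None was lower without overlap, which for miR-30d-3p at day 6 rested on the shallow library: its inputs B and C, at 20.7 and 17.9 CPM, were above its IPs at 12.5 to 15.0. The median log2 ratio of the 3p members was 0.48, 0.57 and 0.50.

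Among the hairpins with both arms among the members (miR-30a, miR-30c, miR-30d and miR-30e), the contrast between arms was largest for miR-30a and miR-30e. For miR-30b, whose 3p strand is not a member, no share was computed. Its 3p strand had 148 to 190 reads in the WT inputs, against 1107 to 1457 of the 5p strand. In the WT IPs it had 63 to 118 reads against 19 to 53, so there too the minor arm became the major arm. The 3p strand made up 3.09 ± 0.08% of the miR-30a reads of both arms in the WT input and 51.6 ± 2.01% in the WT IP (SD, n = 3). The share was 3.10 ± 0.22% in the KD3 input and 53.5 ± 4.32% in the KD3 IP, and 2.75 ± 0.33% and 56.0 ± 4.36% at day 6. For miR-30e the 3p share was 10.4 ± 1.27% in the WT input and 83.4 ± 2.70% in the WT IP, so that the minor arm of the input was the major arm of the IP. After knockdown the miR-30e input and IP shares were 9.91 ± 0.48% and 85.1 ± 4.51% at day 3, and 13.4 ± 4.33% and 84.7 ± 3.68% at day 6. For miR-30c, with both loci added, the 3p share went from 13.8 ± 0.96% to 43.5 ± 8.96% in WT, from 12.5 ± 1.09% to 46.1 ± 8.39% in KD3 and from 8.15 ± 4.08% to 23.6 ± 3.91% in KD6. The shallow replicate A of the KD6 input was highest for both, at 12.8% for miR-30c and 18.3% for miR-30e. Replicates B and C of that input had 6.44 and 5.20% for miR-30c and 11.8 and 10.1% for miR-30e.

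miR-30d moved the other way. Its 3p share was 0.136 ± 0.025% in the WT input and 0.038 ± 0.016% in the WT IP, and 0.114 ± 0.024% and 0.056 ± 0.011% in KD3. In KD6 it was 0.167 ± 0.125% in the input, with 0.023% in replicate A, 0.235% in B and 0.243% in C, and 0.042 ± 0.018% in the IP. The input and IP ranges of miR-30d were separate in WT and KD3, and met in KD6 only through replicate A of the input.

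**Figure D4:**
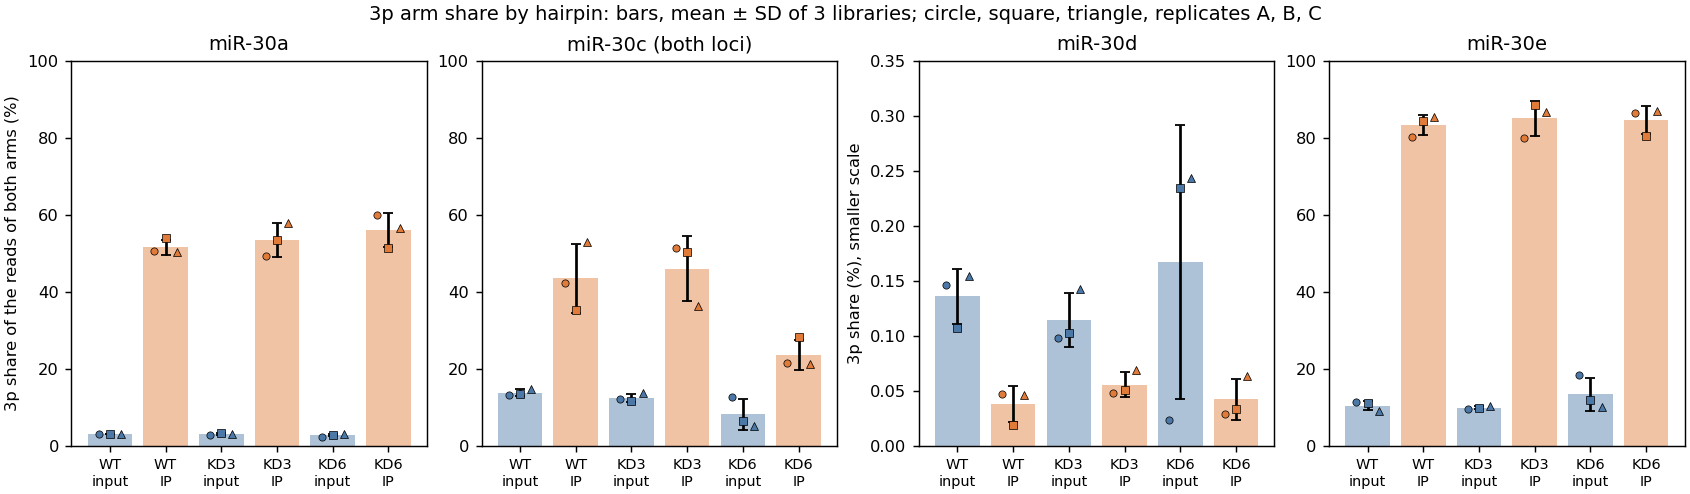
Share of the 3p arm in the reads of both arms (%) for miR-30a, miR-30c (both loci), miR-30d and miR-30e by group, as bars of the mean with SD over 3 libraries and points for replicates; the miR-30d panel has a smaller scale. The 3p share is higher in IPs (orange) than in inputs (blue) for miR-30a, miR-30c and miR-30e in all conditions and lower for miR-30d, where replicate A of the KD6 input is low.

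Levels in the input were compared between conditions, a comparison that the choice of members did not rest on, although earlier results of these data were known. None of the 10 members passed an adjusted p of 0.05 (edgeR quasi-likelihood test, Benjamini-Hochberg adjusted over all 550 miRNAs). Over all miRNAs, 0% passed for KD3 against WT, 3.09% for KD6 against WT and 4% for KD6 against KD3, and 8%, 14.2% and 17.6% had an unadjusted p under 0.05. In KD3 against WT no member did, and the log2 changes ran from −0.30 ± 0.25 for miR-30c-1-3p to 0.07 ± 0.33 for miR-30b-5p. In KD6 against WT 1 member did, miR-30c-2-3p, at −0.62 ± 0.20 (adjusted p = 0.121). It was at 143, 132 and 103 CPM in the KD6 input, below the 186 to 192 of WT, and it passed with TMM factors (adjusted p = 0.0388, 23 of 550 miRNAs called) and in DESeq2 (adjusted p = 0.0319, 27 called), with adjusted p from 0.0319 to 0.565 over all alternatives. The highest in that comparison was miR-30d-3p at 0.53 ± 0.35, and miR-30c-1-3p had 0.07 ± 0.28.

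In KD6 against KD3 the input of miR-30c-5p had a log2 change of 0.58 ± 0.24 (adjusted p = 0.210) and that of miR-30d-3p 0.82 ± 0.35 (adjusted p = 0.216), with miR-30c-2-3p lowest at −0.37 ± 0.20 and miR-30c-1-3p at 0.36 ± 0.28. miR-30c-5p was at 2102 and 2106 CPM in KD6 replicates B and C but at 1076 in the shallow replicate A, against 1175 to 1192 in KD3 and 1157 to 1328 in WT. With the shallow library left out, miR-30c-5p passed against both KD3 (0.83 ± 0.21, adjusted p = 0.0153) and WT (0.78 ± 0.21, adjusted p = 0.0316), and miR-30d-3p passed against KD3 (0.97 ± 0.30, adjusted p = 0.0486). In that fit 50 of 596 miRNAs (8.39%) passed against KD3 and 31 (5.20%) against WT. Over all alternatives against KD3, adjusted p ran from 0.0153 to 0.621 for miR-30c-5p and from 0.0486 to 0.573 for miR-30d-3p. The 5p and 3p shares of the inputs gave 27 comparisons, of which 4 reached p = 0.1, the smallest that the two-sided exact permutation test of 3 against 3 allows (adjusted p = 0.675). These were the miR-30d-5p share, 36.9% in KD6 against 40.03% in WT and 39.96% in KD3, and the 3p shares of miR-30a and miR-30c in KD6 against WT.

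The change in IP enrichment with the knockdown was tested as the difference of IP to input ratios between conditions, which addresses whether Pus1 knockdown altered recovery by Ψ-IP. This test uses the IP reads by which the family was chosen, so its p-values are not fully independent of that choice. None of the 10 members passed an adjusted p of 0.05. Over all 550 miRNAs, 0% passed for KD3 against WT, 0% for KD6 against WT and 0.182% for KD6 against KD3, and 2.91%, 21.6% and 20.4% had an unadjusted p under 0.05. DESeq2 called no member in KD3 against WT or KD6 against WT and 1 in KD6 against KD3. Over all 550 miRNAs, DESeq2 called 0 in KD3 against WT, 23 in KD6 against WT and 13 in KD6 against KD3. In KD3 against WT no member had an unadjusted p under 0.05, and the changes ran from −0.30 ± 0.28 for miR-30d-5p to 0.62 ± 0.36 for miR-30c-1-3p.

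In KD6 the same pair of members stood at the ends of the range, in the opposite order, and the 3 comparisons share libraries. miR-30d-5p had a change in enrichment of 0.61 ± 0.28 against WT (unadjusted p = 0.0419, adjusted p = 0.218) and 0.91 ± 0.28 against KD3 (unadjusted p = 0.00385, adjusted p = 0.116). The median over all miRNAs was 0.25 and 0.16 in these comparisons, so that miR-30d-5p stood 0.35 and 0.75 above it. With the total of mapped reads as library size the change against WT was −0.13 (adjusted p = 0.833), where the median over all miRNAs was −0.56, so that miR-30d-5p stood 0.43 above it. Replicate C of the KD6 IP, at 23824 CPM, was close to the WT IP, and without it miR-30d-5p passed against WT (0.80, adjusted p = 0.0474) and KD3 (1.14, adjusted p = 0.0194), while with the shallow input left out it passed against KD3 (0.94, adjusted p = 0.0483) and not against WT (0.57, adjusted p = 0.225). Without the IP replicate 57 of 593 miRNAs (9.61%) passed against WT and 63 (10.6%) against KD3, and with the shallow input left out 14 and 21 of 596 did (2.35% and 3.52%). Its adjusted p over all alternatives ran from 0.0474 to 0.986 against WT and from 0.0194 to 0.325 against KD3.

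miR-30c-1-3p had a change of −0.84 ± 0.39 against WT (unadjusted p = 0.0411, adjusted p = 0.218) and −1.46 ± 0.39 against KD3 (unadjusted p = 0.00113, adjusted p = 0.116). This miRNA is on a list that the study drew up from the same libraries, so its direction is not independent evidence. Its KD6 libraries held 3 to 150 reads in the input and 15.8 to 76.7 in the IP. It passed against KD3 with DESeq2 (−1.44, adjusted p = 0.0309), with library sizes alone (−2.14, adjusted p = 0.0114), with total mapped reads (−2.05, adjusted p = 0.0141), on leaving out the shallow input library (−1.56, adjusted p = 0.0371) and on leaving out IP replicate C of KD6 (−1.59, adjusted p = 0.0213). Of all miRNAs, DESeq2 called 13 of 550 in this comparison, library sizes alone 12 and total mapped reads 8 of 568. Against WT it passed with total mapped reads alone (−1.69, adjusted p = 0.0369), where 51 of 568 passed, all of them lower, and the median over all miRNAs was −0.56. Its adjusted p ran from 0.0114 to 0.296 against KD3 and from 0.0369 to 0.489 against WT. With median-ratio factors its near-identical relative miR-30c-2-3p had no unadjusted p under 0.05 in any of the 3 comparisons. With total mapped reads in edgeR, the change of miR-30c-2-3p in KD6 was −0.91 ± 0.30 against WT (adjusted p = 0.0577). Against KD3 it was −0.80 ± 0.30 (adjusted p = 0.136). The medians over all miRNAs there were −0.56 and −0.38.

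The number of distinct read sequences assigned to each member was deposited beside the reads. miR-30a-5p had a median of 148 reads per distinct sequence over the 9 inputs and 17.6 over the 9 IPs, and miR-30e-5p 53.2 and 6.90. miR-30d-5p had 132 and 159. For the 3p strands the medians were close, 20.997 and 18.3 for miR-30a-3p and 19.7 and 19.9 for miR-30e-3p. Distinct sequences grow with the number of reads, so libraries with nearly equal reads of a member were set side by side. At 105603 reads of miR-30d-5p, replicate C of the WT input held 791 distinct sequences, and at 105771 reads replicate A of the KD6 IP held 541. That pair crosses conditions. Within WT the gap was smaller in replicate A, with 754 distinct sequences in 99470 input reads and 667 in 94868 IP reads. miR-30a-3p had 152 distinct sequences in 2748 input reads (KD3, replicate C) and 141 in 2755 IP reads (WT, replicate B). miR-30e-5p had 24.8 in 221 reads of the shallow KD6 input and 39.2 in 223 IP reads (WT, replicate B). Counted by distinct sequences, the share of miR-30d-5p among the 5p members was 33.6 ± 0.23% in the WT input and 72.9 ± 1.66% in the WT IP.

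**Figure D5:**
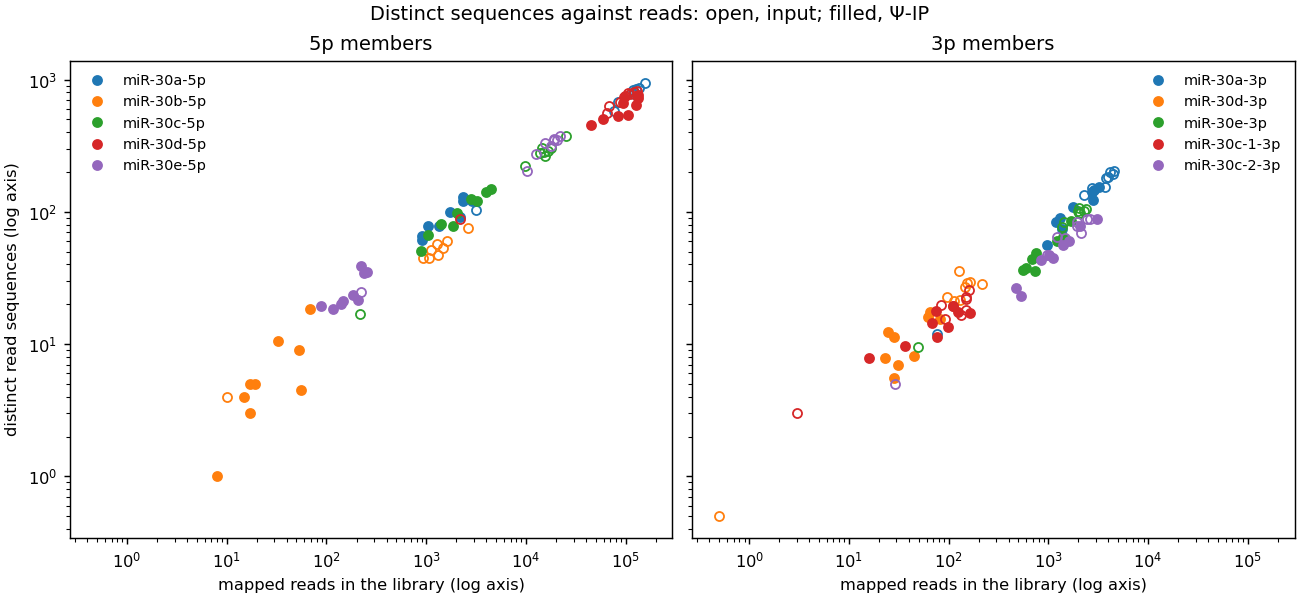
Number of distinct read sequences against mapped reads for each member in every library, both on log axes, with open circles for inputs and filled circles for IPs, 5p members on the left and 3p members on the right. Points of input and IP lie close to a common trend, and the IP points of miR-30a-5p and miR-30e-5p sit at far fewer reads than most of their inputs.

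Other products of the same loci had low counts. miR-30b-3p had 2 to 221 reads in inputs and 25 to 143 in IPs, with 14.05 ± 0.20 CPM in the WT input and 17.1 ± 1.34 in the WT IP. miR-30f, annotated on the strand opposite to Mir30e, had at most 1 read in any library. Of 143 other miRNAs with a mean of at least 100 CPM, those whose log2 CPM over the 18 libraries most resembled the summed 5p members were let-7c-2-3p (Pearson r = 0.83), let-7a-1-3p (r = 0.83) and let-7j (r = 0.63). For the summed 3p members they were miR-501-3p (r = 0.97), let-7e-5p (r = 0.96) and miR-10a-5p (r = 0.95). These are descriptions in which the 18 points share libraries and the IP to input difference. Mean levels of let-7c-2-3p and let-7a-1-3p were nearly equal, at 82.9 CPM each in inputs and 125 each in IPs. These 2 rows may therefore not be separate measurements. The summed 3p level was 720 ± 40.8 CPM in the WT input and 1072 ± 68.7 in the WT IP, with separate ranges.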

How the data were processed

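Small RNA-seq libraries of NIH/3T3 cells (18: input and Ψ-IP of WT, KD3 and KD6, 3 each) were processed by the authors with SeqImp (version not given in the sources used here), mm10, Ensembl 89 and miRBase 21. The deposited values are estimated counts of mapped reads and of distinct read sequences per mature miRNA and locus, with reads that matched several loci divided among them. Rows of a mature miRNA were summed, rounded and filtered (filterByExpr), and fitted with edgeR 4.0.16 (glmQLFit and glmQLFTest, median-ratio factors, 6 group means over all 18 libraries), with Benjamini-Hochberg adjustment over 550 miRNAs. The code was tested on simulated data. Shares were compared by exact permutation tests (scipy 1.17.1). Alternatives were TMM, upper-quartile or no factors, total mapped reads, no filter, the largest row, DESeq2 1.42.0, a replicate block, only the libraries compared, and each library left out. Members and lists were chosen with earlier results of these data known. All members were named, but in tested comparisons only those lowest, highest or with an unadjusted p under 0.05, and miR-30c-1-3p. No 2 libraries were identical. Intervals cover the spread between libraries, and PCR duplicates could not be removed.

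Whether replicate letters pair libraries was checked by correlating deviations from group means over 188 miRNAs. All 3 letters exceeded 0.1 for KD3 against WT inputs (0.20 to 0.61) and for KD6 against KD3 inputs (0.24 to 0.34) and for no other pair of groups, and no label says what a letter shares.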

Additional observations from a re-analysis of the deposited data

How the results depend on the processing

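The gap between the log2 ratios of miR-30d-5p and miR-30a-5p ranged over left-out libraries from 5.89 to 6.02 in WT, 5.62 to 5.70 in KD3 and 6.68 to 7.13 in KD6, and the other settings moved it by less than the spread between replicates. With the replicate block, the gap was 5.94, 5.65 and 6.84, and 0 members passed in any tested comparison, so the block changed no call. The count of members past the threshold was 0 in the settings not named here. For the change in enrichment it was 2 for KD6 against WT with total mapped reads (miR-30a-5p and miR-30c-1-3p), 1 for KD6 against KD3 with library sizes alone, with total mapped reads and in DESeq2, and 0 to 1 and 0 to 2 over left-out libraries. For inputs it was 1 for KD6 against WT with TMM factors and in DESeq2, 0 to 1 over left-out libraries there, and 0 to 2 for KD6 against KD3. The left-out libraries that moved these counts were replicate A of the KD6 input and replicate C of the KD6 IP. The other counts moved with the scaling or with DESeq2, with all 18 libraries kept.

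By distinct sequences in place of reads, the IP minus input difference of the miR-30d-5p share was 39.3, 39.2 and 40.6 percentage points in WT, KD3 and KD6 in place of 55.8, 55.1 and 59.6. The 3p share of miR-30a differed by 35.9, 34.5 and 37.6 points in place of 48.5, 50.4 and 53.3, and that of miR-30d by −1.59, −1.34 and −1.61 in place of −0.10, −0.06 and −0.12. Distinct sequences grow less than in proportion to reads, so the construction of this alternative changes a share.

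Scaling turned the direction of weak values. In KD6 the log2 IP to input ratios of miR-30a-3p and miR-30e-3p were −0.11 and −0.24 with library sizes alone and −0.45 and −0.57 with total mapped reads, which gave −0.28 for miR-30c-2-3p and, in KD3, −0.021 and −0.039 for the first 2. In WT, miR-30e-3p was −0.057 with TMM factors, −0.087 with total mapped reads and −0.033 with the shallow KD6 input library left out. The values of miR-30d-3p in KD3 and of miR-30c-1-3p in KD6, both near 0, turned with scaling and with left-out libraries (−0.58 to 0.47 and −1.21 to 0.47). The change in enrichment of miR-30d-5p in KD6 against WT was −0.13 with total mapped reads, 0.43 above the median of all miRNAs on that scale. Input changes near 0 also turned: miR-30b-5p in KD3 against WT was −0.067 with TMM factors, −0.038 with library sizes alone and −0.10 with total mapped reads, and miR-30c-1-3p in KD6 against WT was −0.045 with TMM factors and −0.029 (without replicate C of the WT input) to 0.19 (without its replicate A) over left-out libraries. The median IP to input ratio of all miRNAs was −0.35 to −0.26 with TMM, 0.37 to 0.50 with upper-quartile factors, −0.81 to −0.18 with library sizes alone and −1.16 to −0.38 with total mapped reads. The cause of these turns beyond the scaling was not tested. miR-30b-5p in IPs, miR-30d-3p and miR-30c-1-3p are limited by their low counts.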
